A study of Mus musculus with 6 samples.

Results

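The genes described here are 9 genes by which cells recognise and engulf dying cells: the receptors Mertk, Axl and Tyro3 (the TAM receptors), their bridging ligands Gas6 and Pros1, the bridging protein Mfge8, the scavenger receptor Cd36, and the engulfment genes Elmo1 and Dock1. They were taken by symbol, through their Entrez Gene identifiers, as receptors, bridges and engulfment genes that Sertoli cells use. The rule used no measured value, but earlier results of these data were known when it was set. All 9 were found among the 20007 gene identifiers of the count files, all 9 had reads in every library, and all 9 were among the 15272 genes with enough reads to be tested. The series holds 6 RNA sequencing libraries from mice of the KM strain, 2 in each of 3 groups, and was designed to compare chemically induced Sertoli-like cells with Sertoli cells across the genome.

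MEFs are mouse embryonic fibroblasts, with an age label of 13.5 days post coitum and a growth protocol that names 12.5 days as well. CiSCs carry the same age and strain labels and are passaged MEFs that had been given unnamed small molecules meant to turn them into Sertoli-like cells. MSCs are Sertoli cells plated from testes of mice at postnatal day 60. No genotype other than the strain is given, and the labels name no MEFs passaged in parallel without the compounds, so that compound treatment and passage cannot be told apart. It is not stated if replicate libraries stem from different cultures or animals, so the p-values measure only the spread between these libraries, which may be technical. In bulk RNA such as this, fewer cells of a type and less RNA per cell cannot be told apart.

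Dying cells expose phosphatidylserine, a membrane lipid that is otherwise kept on the inner leaflet. GAS6 and protein S bind it and also bind the TAM receptor tyrosine kinases, while MFG-E8 joins it to integrins and CD36 takes up lipids and lipoproteins as well as dying cells. Signals from such receptors reach the ELMO1 and DOCK1 complex, which activates the small GTPase RAC1 and so drives the membrane around the corpse. In the testis, Sertoli cells clear the many germ cells that die during spermatogenesis and the residual cytoplasm that spermatids shed.

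Promoter sequences are shown for 4 of these genes. Axl and Tyro3 are shown because these related receptors changed in opposite directions between MEFs and CiSCs, and Cd36 and Elmo1 because they were the lowest of the 9 genes in CiSCs. Each sequence runs 5′ to 3′ on the gene's strand up to the base before the annotated start, leaving out any annotated exon, and comes from RefSeq on GRCm38.p6, which is not the mm9 build named for the alignment. Axl lies at chr7:25788734-25788983 on the minus strand, Tyro3 at chr2:119799416-119799513 on the plus strand, Cd36 at chr5:17835897-17836146 on the minus strand and Elmo1 at chr13:20090257-20090506 on the plus strand. Capitals mark matches on either strand to the GC box GGGCGG, the Ets-type core GAGGAA, the AP-1 motif TGANTCA and the nuclear receptor half-site AGGTCA, and overlapping matches run together.
Axl: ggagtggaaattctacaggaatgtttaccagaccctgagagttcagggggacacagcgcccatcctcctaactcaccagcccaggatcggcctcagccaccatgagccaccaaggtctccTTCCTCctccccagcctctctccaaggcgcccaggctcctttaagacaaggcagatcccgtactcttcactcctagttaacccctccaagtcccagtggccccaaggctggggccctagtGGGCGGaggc
Tyro3: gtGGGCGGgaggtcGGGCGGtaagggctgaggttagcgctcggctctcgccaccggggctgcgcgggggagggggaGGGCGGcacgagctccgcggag
Cd36: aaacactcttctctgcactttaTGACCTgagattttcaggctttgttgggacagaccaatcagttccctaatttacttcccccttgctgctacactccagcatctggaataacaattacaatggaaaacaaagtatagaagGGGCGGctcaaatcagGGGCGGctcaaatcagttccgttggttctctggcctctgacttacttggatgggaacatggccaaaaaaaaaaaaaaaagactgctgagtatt
Elmo1: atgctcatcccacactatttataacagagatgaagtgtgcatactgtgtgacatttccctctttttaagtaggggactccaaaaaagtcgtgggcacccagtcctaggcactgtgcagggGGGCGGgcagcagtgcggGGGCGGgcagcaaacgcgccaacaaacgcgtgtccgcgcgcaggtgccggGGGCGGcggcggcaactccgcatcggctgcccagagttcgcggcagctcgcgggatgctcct
All 9 genes matched the promoter table, with 10 windows of 250 bases before a start, since Elmo1 has a further annotated start whose window lies within an exon and is not shown. Over the whole windows, exons included, the GC box occurred in 9 of these 10 and in 32.7% of the 32851 windows of this length in the table. The Ets-type core occurred in 3 of 10 and in 23.3% of all windows, the half-site in 1 of 10, that of Cd36, and in 14% of all windows, and the AP-1 motif in 0 of 10 and in 6.75% of all windows. In the exon-free parts, 1 for each gene, the Ets-type core occurred in 2 of 9, those of Axl and Mfge8, and the GC box in 9 of 9. These are matches of letters only and carry no measure of binding.

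Library totals lay between 19294700 and 20418600 expected counts. The weight of 1 read was 0.0468 to 0.0543 CPM, the level after scaling by library size and a normalisation factor (TMM, 0.9216 to 1.088). The MEF libraries stood further apart than the others, with 1416 genes more than 2-fold apart between them against 477 in CiSCs and 415 in MSCs, and the difference went with transcript length: the median log2 ratio of MEF replicate 1 to replicate 2 ran from -0.33 for transcripts under 2 kb to 0.43 for those over 6 kb. Macrophage markers separated the groups. All 17 tested genes of 18 macrophage and leukocyte markers fell in CiSCs against MEFs, in MSCs against MEFs and in CiSCs against MSCs, and their summed level was 13010 and 21140 CPM in MEFs, 59.1 and 76.1 CPM in CiSCs, and 1776 and 1657 CPM in MSCs. None of the 18 was at 0 reads in a whole group, and mean levels in MEFs, CiSCs and MSCs were 144, 0.188 and 25.0 CPM for Ptprc, 1452, 1.62 and 107 CPM for Csf1r, and 310, 0.868 and 31.5 CPM for Adgre1. Of the Sertoli cell markers, Wt1 averaged 1.36, 21.7 and 200 CPM, Sox9 13.8, 15.8 and 78.8 CPM, and Gata4 0.154, 0.0945 and 252 CPM in the same order, so that Gata4 was close in CiSCs to the 0.0709 CPM that 3 reads over the group give. Of 17 tested Sertoli cell markers, 6 rose and 2 fell in CiSCs against MEFs. In MSCs against MEFs 14 rose and 1 fell, and in CiSCs against MSCs 2 were higher and 14 lower. Some Sertoli cell markers were low in MSCs as well. The untested Fshr, Cst9 and Rhox5 had at most 12 reads in an MSC library, and Amh averaged 5.43 CPM in MSCs. The summed level of the 20 listed was 1063 and 1218 CPM in MEFs, 7089 and 6243 CPM in CiSCs, and 8885 and 12420 CPM in MSCs, and most of the CiSC sum came from Clu (4377 CPM on average) and Cyp26b1 (1135 CPM, against 14.9 CPM in MSCs), named after their values were seen. Summed levels were higher in MSCs than elsewhere for Leydig cell markers (10 genes, 1783 and 1832 CPM, against 36.0 to 49.2 CPM elsewhere, with Cyp11a1 at 783 CPM), endothelial markers (11 genes, 124 and 134 CPM against 24.5 to 38.4 CPM, with Cdh5 at 56.9 CPM, although Emcn and Egfl7 were higher in CiSCs and Vwf in MEFs) and adipocyte markers (9 genes, 528 and 621 CPM against 37.4 to 63.4 CPM, with Adipoq at 0 reads in both). All 7 tested Leydig cell markers were lower in CiSCs than in MSCs, but the untested Cyp17a1, Hsd17b3 and Lhcgr had at most 2 reads in an MSC library. The adipocyte sum in MSCs was almost all Lpl (552 CPM on average): without it the other 8 genes gave 22.2 and 22.3 CPM in MSCs and 25.2 and 24.4 CPM in CiSCs. Summed fibroblast markers were 25420 to 43280 CPM in all 6 libraries, peritubular myoid markers 1579 to 4056 CPM and germ cell markers 2.10 to 33.5 CPM, with Myh11 at 92.0 CPM and Ddx4 at 4.77 CPM in MSCs.

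In CiSCs against MEFs, Tyro3, Pros1 and Mfge8 rose and Mertk, Axl, Cd36 and Elmo1 fell, while Gas6 and Dock1 did not pass the test. These are 3 of 9 genes higher and 4 of 9 lower, against 19.6% of all tested genes higher and 21.3% lower, where a call is an adjusted p under 0.05 from edgeR's quasi-likelihood test (Benjamini-Hochberg, over the 15272 genes). This test and threshold are used throughout. In MSCs against MEFs, 6 of the 9 genes rose (Axl, Tyro3, Gas6, Pros1, Mfge8 and Cd36) and 2 fell (Mertk and Elmo1), against 22.5% and 20.0% of all tested genes. In CiSCs against MSCs, 6 of the 9 fell (Axl, Tyro3, Gas6, Mfge8, Cd36 and Elmo1) and Mertk, Pros1 and Dock1 did not pass the test, against 25.1% of all tested genes lower and 17.7% higher. The median log2 fold change of the 9 genes was 0.04, 1.35 and -1.02 in these comparisons, against medians within 0.0251 of 0 over all tested genes. The first and second comparisons share the MEF libraries, and all 3 come from 1 fit, so they are set side by side and not counted as separate evidence.

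The number of calls in CiSCs against MEFs rested on both CiSC libraries: without either of them 3 of the 9 genes, Tyro3, Cd36 and Elmo1, passed the test. Over all tested genes the called share fell likewise, from 40.9% to 22.1% and 21.7% without CiSC replicate 1 and 2. The 3 calls held under all 13 alternative settings.

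**Figure D1:**
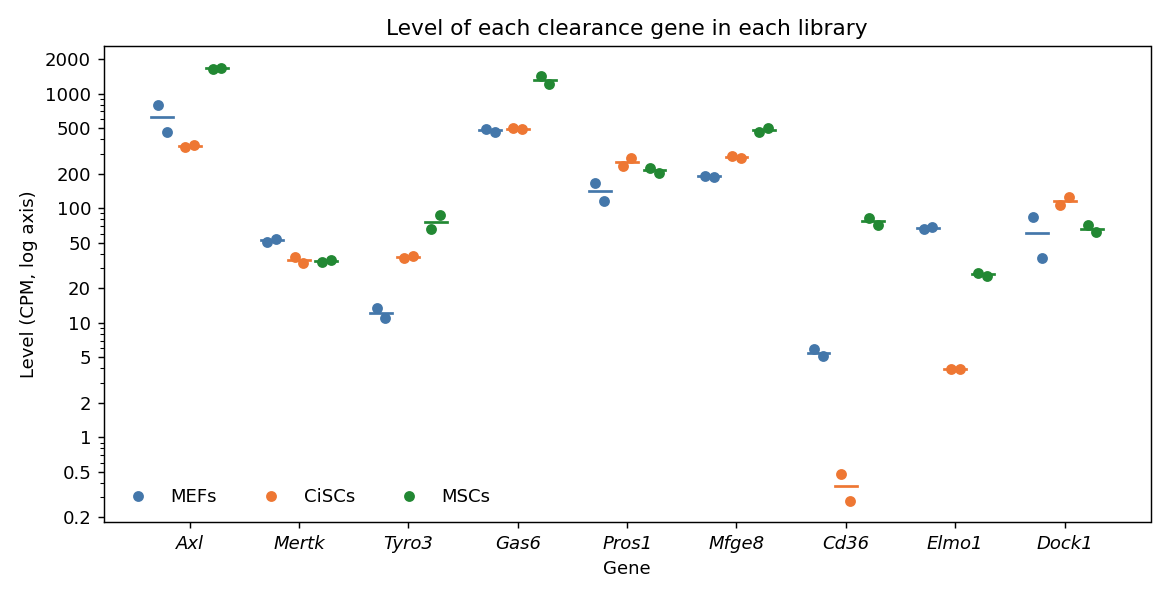
Level of each of the 9 clearance genes in each library, in CPM on a log axis, with 1 point per library and a bar at the group mean (2 libraries per group). Axl, Gas6, Mfge8, Tyro3 and Cd36 are highest in MSCs, Elmo1 and Mertk in MEFs, and Cd36 and Elmo1 are lowest in CiSCs, while the MEF points for Dock1 and Axl lie far apart.

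Mertk, the TAM receptor best known for clearance by macrophages, the retinal pigment epithelium and Sertoli cells, was measured at 50.4 and 54.4 CPM in MEFs, 37.5 and 33.0 CPM in CiSCs, and 33.7 and 35.6 CPM in MSCs. Both MEF libraries lay above all 4 others, and the CiSC and MSC values overlapped. Mertk fell in CiSCs against MEFs, by a log2 fold change of -0.57 ± 0.135 (SE, adjusted p = 0.0164). It also fell in MSCs against MEFs (-0.60 ± 0.136, adjusted p = 0.0134), and CiSCs against MSCs gave 0.03 ± 0.136 (adjusted p = 0.903). The call in CiSCs against MEFs was lost without CiSC replicate 1 or 2 (adjusted p = 0.0657 and 0.139) and without MSC replicate 1 or 2 (0.0566 and 0.0546), within a range of 0.00237 to 0.139 over all alternatives. The call in MSCs against MEFs was lost without MSC replicate 1 or 2 (0.125 and 0.0878), within a range of 0.00191 to 0.125. The group with the highest Mertk was also the one with the highest macrophage marker sum, and the part of macrophage RNA in this result was not tested. Between CiSCs and MSCs that sum differed 25.4-fold, while Mertk differed 1.02-fold.

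Axl, the TAM receptor that binds GAS6 and is known from fibroblasts, endothelium and activated macrophages, differed more between groups. It stood at 793 and 463 CPM in MEFs, 342 and 357.5 CPM in CiSCs, and 1655 and 1689 CPM in MSCs. The groups did not overlap, with MSCs at the top and CiSCs at the bottom, and the MEF libraries were 1.71-fold apart. Axl rose in MSCs against MEFs by 1.41 ± 0.254 on the log2 scale (adjusted p = 0.00531) and was 4.78-fold lower in CiSCs than in MSCs (log2 fold change -2.26 ± 0.261, adjusted p = 0.00071). The fall in CiSCs against MEFs was smaller, at -0.84 ± 0.251 (adjusted p = 0.0367), and its size turned on the MEF library used: -0.43 without MEF replicate 1 (adjusted p = 0.00696) and -1.18 without MEF replicate 2. That call was lost without CiSC replicate 1 or 2 (adjusted p = 0.158 and 0.135), without MSC replicate 1 or 2 (0.0876 and 0.0859) and with only these 2 groups in the fit (0.0783), within a range of 4.07e-05 to 0.158 over all alternatives.

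Tyro3, the TAM receptor best known from neurons and for its affinity for protein S, had the opposite order of MEFs and CiSCs. Its levels were 13.5 and 11.1 CPM in MEFs, 36.8 and 38.4 CPM in CiSCs, and 65.9 and 86.4 CPM in MSCs, and no groups overlapped. Tyro3 rose 3.06-fold in CiSCs against MEFs (log2 fold change 1.62 ± 0.188, adjusted p = 0.000893) and 6.21-fold in MSCs against MEFs (2.63 ± 0.192, adjusted p = 0.000128). CiSCs stayed 2.03-fold below MSCs (-1.02 ± 0.180, adjusted p = 0.00459). It was the only TAM receptor that rose in CiSCs against MEFs, and it was lowest in the libraries with the highest macrophage marker sum.

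Within a library the TAM receptors can be compared per kilobase (kb) of coding length. On that scale Axl made up 93.1% and 88.6% of the summed level of the 3 receptors in MEFs, 82.9% and 84.0% in CiSCs, and 94.5% and 93.4% in MSCs. The share of Tyro3 was 1.59% and 2.14% in MEFs, 9.01% and 9.09% in CiSCs, and 3.79% and 4.82% in MSCs. Axl thus led in all 6 libraries, and the Tyro3 share was higher in both CiSC libraries than in any other. Mertk made up 5.28% and 9.31% in MEFs, 8.12% and 6.93% in CiSCs, and 1.72% and 1.76% in MSCs. The ratio of Tyro3 to Mertk reads, which compares libraries and not levels because the lengths differ, was 0.267 and 0.203 in MEFs, 0.982 and 1.16 in CiSCs, and 1.96 and 2.43 in MSCs. It was thus lowest in both MEF libraries and highest in both MSC libraries.

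**Figure D2:**
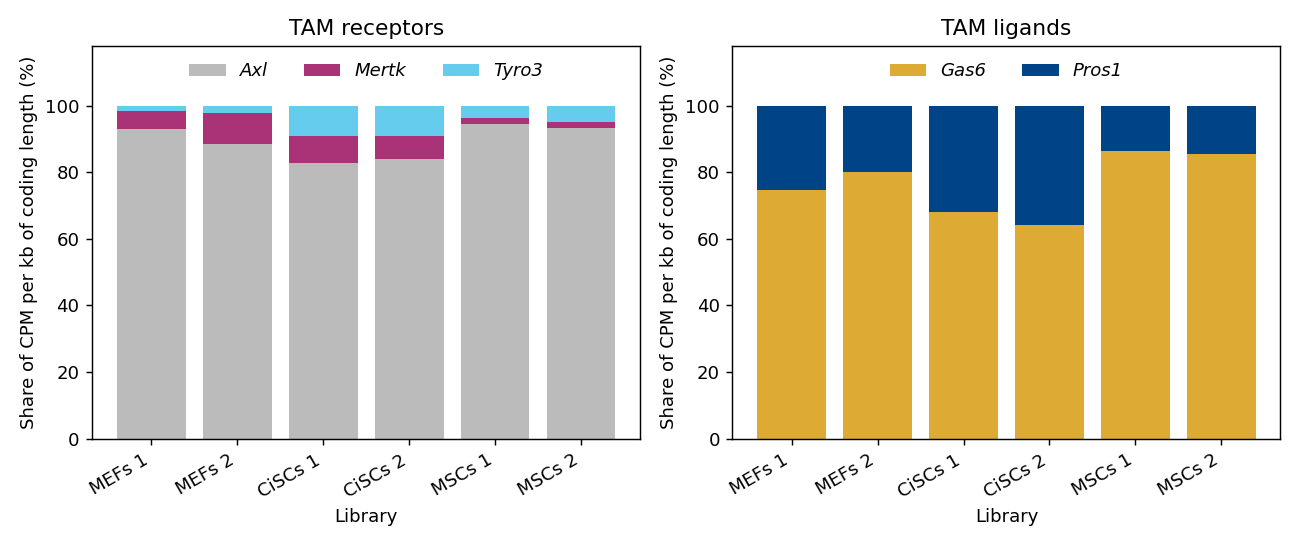
Share in percent of each TAM receptor (left) and TAM ligand (right) in the summed CPM per kb of coding length, with 1 stacked bar per library. Axl is the largest receptor share in all 6 libraries, the Tyro3 share is 9.01% and 9.09% in CiSCs, and the Gas6 share is lowest in CiSCs and highest in MSCs.

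Gas6, the vitamin K-dependent ligand of all TAM receptors, was measured at 491 and 467 CPM in MEFs, 498 and 488 CPM in CiSCs, and 1428 and 1210 CPM in MSCs. MEF and CiSC values overlapped, and both MSC libraries lay well above them. In MSCs Gas6 rose 2.75-fold against MEFs (log2 fold change 1.46 ± 0.144, adjusted p = 0.000411), and CiSCs were 2.68-fold below MSCs (-1.42 ± 0.144, adjusted p = 0.000398). CiSCs against MEFs gave 0.04 ± 0.141 (adjusted p = 0.834). The level in CiSCs thus differed from that in MSCs and not measurably from that in MEFs.

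Pros1, which encodes protein S, an anticoagulant plasma protein and the ligand of MERTK and TYRO3, stood at 166 and 115 CPM in MEFs, 233 and 273 CPM in CiSCs, and 225.5 and 204 CPM in MSCs. Both MEF libraries were below all others, CiSC values were above those of MSCs without overlap, and the MEF libraries were 1.44-fold apart. Pros1 rose in CiSCs against MEFs (log2 fold change 0.85 ± 0.201, adjusted p = 0.0164), a call that was lost without CiSC replicate 1 (adjusted p = 0.0589) or 2 (0.127), within a range of 0.000358 to 0.127. It rose in MSCs against MEFs by 0.61 ± 0.200 (adjusted p = 0.0487), close to the threshold. This call was lost without CiSC replicate 1 or 2 (adjusted p = 0.103 and 0.102), without MSC replicate 1 or 2 (0.233 and 0.145), with only these 2 groups in the fit (0.096) and with no filter (0.0649), within a range of 0.00114 to 0.233. Without MEF replicate 2 the change was 0.37 (adjusted p = 0.0478). CiSCs against MSCs gave 0.24 ± 0.199 (adjusted p = 0.387). Per kb of coding length, Gas6 made up 74.8% and 80.2% of the summed level of both ligands in MEFs, 68.2% and 64.1% in CiSCs, and 86.4% and 85.6% in MSCs.

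Mfge8, which encodes the bridge from phosphatidylserine to integrins, was at 193 and 188 CPM in MEFs, 285.5 and 274.5 CPM in CiSCs, and 460 and 506 CPM in MSCs. The groups stood in that order with no overlap. The gene rose in MSCs against MEFs by a log2 fold change of 1.35 ± 0.125 (adjusted p = 0.000329) and was lower in CiSCs than in MSCs by -0.79 ± 0.124 (adjusted p = 0.00277). The rise in CiSCs against MEFs was 0.56 ± 0.124 (adjusted p = 0.0127) and was lost without CiSC replicate 1 (adjusted p = 0.117) or 2 (0.0995), within a range of 0.000177 to 0.117. Of the integrin genes whose products bind MFG-E8, chosen after their values were seen, Itgb5 fell in CiSCs (-0.91 ± 0.124, adjusted p = 0.0018) and in MSCs (-1.34 ± 0.125, adjusted p = 0.000331) against MEFs. Itgb3 gave -0.68 ± 0.242 in CiSCs (adjusted p = 0.0655) and fell in MSCs (-2.51 ± 0.261, adjusted p = 0.000523), and Itgav gave -0.05 ± 0.388 and 0.27 ± 0.389 (adjusted p = 0.939 and 0.600). Mfge8 and these integrin genes therefore did not move the same way.

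Cd36, a scavenger and fatty acid receptor of macrophages, adipocytes, microvascular endothelium and Sertoli cells, had the widest range. It stood at 5.87 and 5.09 CPM in MEFs, 0.477 and 0.281 CPM in CiSCs (10 and 6 reads), and 82.8 and 71.1 CPM in MSCs. The groups were each more than 10-fold apart and did not overlap. Cd36 rose in MSCs against MEFs by 3.81 ± 0.192 on the log2 scale (adjusted p = 3.23e-05) and fell in CiSCs against MEFs by a log2 fold change of -3.84 ± 0.269 (adjusted p = 0.000106). In CiSCs against MSCs the log2 fold change was -7.65 ± 0.258 (adjusted p = 9.84e-06), the largest of the 9 genes. The marker sums of other cell types were also higher in MSCs than in CiSCs. They were 25.4-fold higher for macrophages (17 and 9 of 18 genes above 1 CPM), 15.3-fold for adipocytes (5 and 3 of 9, but 0.898-fold without Lpl), 5.01-fold for endothelium (9 and 3 of 11) and 48.5-fold for Leydig cells (7 and 3 of 10). For germ cells the fold was 12.9 (3 and 1 of 8), for peritubular myoid cells 2.38 (8 and 8 of 8) and for fibroblasts 1.36 (14 and 14 of 14). The fibroblast sum hid a split, since 8 of its 14 genes were higher and 2 lower in CiSCs than in MSCs. These were 57.1% and 14.3%, with a median log2 fold change of 1.58, beside 17.7% and 25.1% of all tested genes. Their part in the Cd36 result was not tested. In MSCs against MEFs, the macrophage marker sum was 9.95-fold lower and Cd36 was 14.0-fold higher.

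Elmo1, the scaffold subunit of the engulfment complex that is abundant in leukocytes, was at 66.4 and 67.9 CPM in MEFs, 3.96 and 3.98 CPM in CiSCs, and 27.1 and 25.7 CPM in MSCs. Replicates were at most 1.06-fold apart and no groups overlapped, with MEFs at the top and CiSCs at the bottom. Elmo1 fell 16.9-fold in CiSCs against MEFs (log2 fold change -4.08 ± 0.139, adjusted p = 1.49e-05), 2.54-fold in MSCs against MEFs (-1.35 ± 0.121, adjusted p = 0.000285) and 6.65-fold in CiSCs against MSCs (-2.73 ± 0.135, adjusted p = 2.46e-05). The macrophage marker sum had the same order of groups, being 253-fold lower in CiSCs and 9.95-fold lower in MSCs than in MEFs, and its part in the Elmo1 result was not tested. Of its relatives, named here after their values were seen, Elmo2 was at 80.0 and 67.3 CPM in MEFs, 79.4 and 77.0 CPM in CiSCs and 68.1 and 69.9 CPM in MSCs, and did not pass the test in any comparison (adjusted p = 0.636, 0.605 and 0.331). Elmo3, at 1.01 and 1.04 CPM in MEFs, 0.716 and 0.468 CPM in CiSCs and 3.93 and 3.80 CPM in MSCs, rose in MSCs against MEFs (1.91 ± 0.319, adjusted p = 0.00391). Like Elmo1 it was lower in CiSCs than in MSCs (-2.70 ± 0.336, adjusted p = 0.00099), and CiSCs against MEFs gave -0.79 ± 0.358 (adjusted p = 0.125).

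Dock1, the catalytic partner of ELMO1 that exchanges the nucleotide on RAC1, was at 84.5 and 36.7 CPM in MEFs, 107 and 126 CPM in CiSCs, and 70.8 and 62.3 CPM in MSCs. CiSC values were above all others, and the MEF values enclosed those of MSCs. Its transcript is 6807 bases long, and its MEF libraries were 2.3-fold apart in the direction of the length trend between them. Dock1 did not pass the test in any comparison, with log2 fold changes of 0.94 ± 0.361 in CiSCs against MEFs (adjusted p = 0.0806), 0.14 ± 0.359 in MSCs against MEFs (adjusted p = 0.785) and 0.81 ± 0.360 in CiSCs against MSCs (adjusted p = 0.119). The calls changed with the MEF libraries used. Without MEF replicate 1, Dock1 passed in all 3, at 1.64 (adjusted p = 7.81e-05), 0.83 (0.0021) and 0.81 (0.000554). Without MEF replicate 2 the values were 0.46 (0.0291), -0.35 (0.0713) and 0.81 (0.000553), so that the direction in MSCs against MEFs reversed. The CiSC against MSC difference also passed with only these groups in the fit (0.83, adjusted p = 0.000266), and the CiSC against MEF difference passed with DESeq2 (0.94, adjusted p = 0.0248). Over all alternatives the adjusted p ran from 7.81e-05 to 0.29, from 0.0021 to 0.965 and from 0.000266 to 0.374 in the 3 comparisons. The ratio of Dock1 to Elmo1 reads, again a comparison between libraries only, was 1.27 and 0.54 in MEFs, 27.1 and 31.6 in CiSCs, and 2.61 and 2.42 in MSCs.

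**Figure D3:**
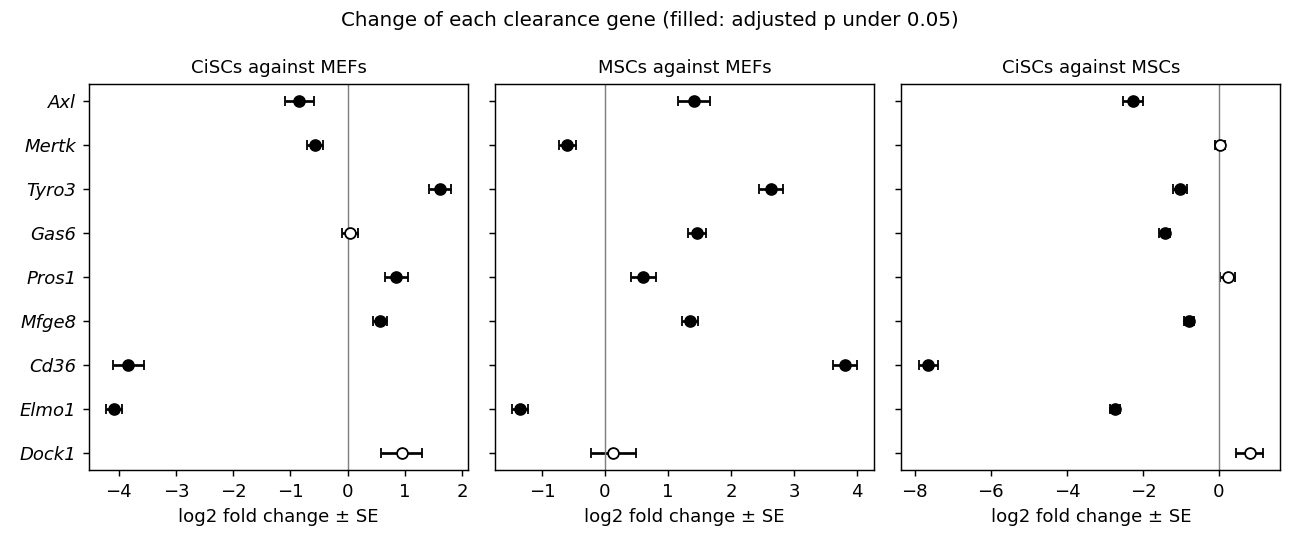
Log2 fold change of each clearance gene in each of the 3 comparisons, with the standard error as bars and filled points for an adjusted p under 0.05 (edgeR, 2 libraries per group). Scales differ between panels. Cd36 and Elmo1 lie furthest to the left in CiSCs against MEFs, and Dock1 is open in all 3 panels.

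**Figure D4:**
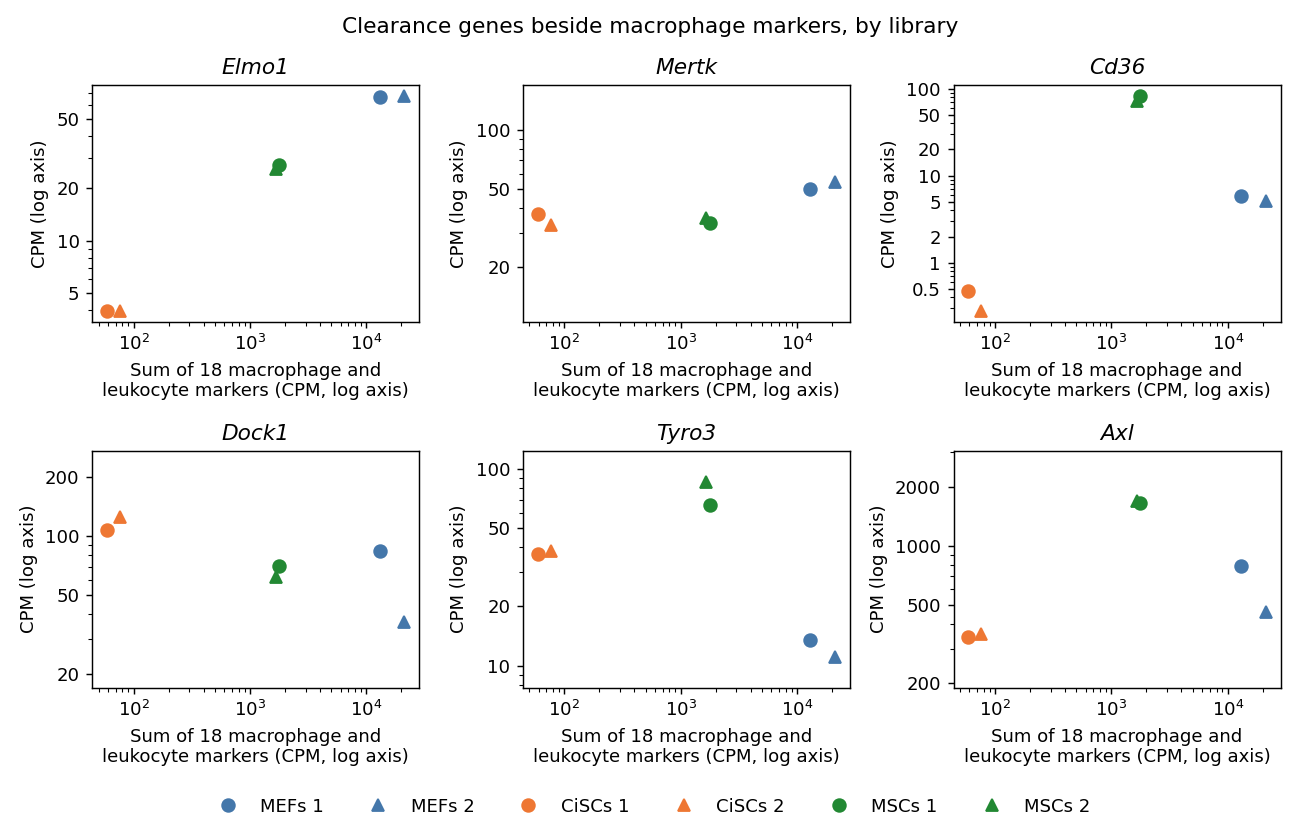
Level of 6 clearance genes against the summed level of 18 macrophage and leukocyte markers, both in CPM on log axes, with 1 point per library. Elmo1 has the same order of groups as the marker sum, Tyro3 is lowest where the sum is highest, and Cd36 and Axl are highest in MSCs at an intermediate sum.

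Ordered per kb of coding length, Gas6 was the most abundant of the 9 genes in every group, at 237 ± 8.59 CPM per kb (SD, n = 2 here and below) in MEFs, 244 ± 3.80 in CiSCs and 652 ± 76.0 in MSCs. Axl followed in MEFs (236 ± 87.8) and MSCs (628 ± 8.93) with values that overlapped those of Gas6. In CiSCs Mfge8 (202 ± 5.63) came next, above Axl (131 ± 4.14) and Pros1 (125 ± 13.9), which overlapped. Cd36 was last in MEFs (3.87 ± 0.386) and CiSCs (0.268 ± 0.0981) and the fifth in MSCs (54.3 ± 5.83). At the lower end in MSCs, Elmo1 (12.1 ± 0.460), Dock1 (11.9 ± 1.08) and Mertk (11.6 ± 0.470) overlapped. Of the 8 pairs of neighbours in each order, 7 in MEFs, 7 in CiSCs and 5 in MSCs did not overlap between their libraries.

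The genes with the most similar profiles were sought among 10900 tested genes with at least 10 CPM in a group, as the smallest root mean square difference in log2 CPM over the 6 libraries after each gene's own mean was taken off. The nearest were Dnm2 for Mertk (0.0316), Sc5d for Axl (0.108), Lpar2 for Tyro3 (0.0836) and Got1 for Gas6 (0.0695). For Pros1 the nearest was Notch2 (0.0525), for Mfge8 Fut8 (0.0738), for Elmo1 Irf5 (0.0865) and for Dock1 Ric1 (0.076). Cd36 had no neighbour as near, Vegfd being at 0.266. The second nearest were Pes1, Col4a5, B4galt4, Slc1a5, Nfatc3, Bcar1, Lvrn and Maml1 in the same order of genes, and Igfbp2 for Cd36. With 3 groups of 2 libraries these likenesses rest on few points and are a description only.

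The other genes of apoptotic cell clearance were listed by role, 101 in 6 lists, of which 100 were in the files and 95 were tested. In CiSCs against MEFs 14 of the 95 rose and 44 fell (14.7% and 46.3%, beside 19.6% and 21.3% of all tested genes), with a median log2 fold change of -0.54. In MSCs against MEFs 20 rose and 35 fell (21.1% and 36.8%, beside 22.5% and 20.0% of all tested genes), with a median of -0.09. In CiSCs against MSCs 14 rose and 41 fell (14.7% and 43.2%, beside 17.7% and 25.1%), with a median of -0.42. The counts and shares per list below are to be read beside these shares of all tested genes. Many of the listed genes are also expressed by macrophages, whose markers fell in each of these comparisons as given above, and the part of macrophage RNA in these counts was not tested.

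Among 18 other receptors 4 rose and 9 fell in CiSCs against MEFs (22.2% and 50%, median -0.84). Stab1, a phosphatidylserine receptor of macrophages and sinusoidal endothelium, went from 654 and 878 CPM in MEFs to 2.10 and 2.57 CPM in CiSCs and was at 72.5 and 66.4 CPM in MSCs. Megf11, a relative of the engulfment receptor MEGF10, went the other way, from 0.202 and 0.104 CPM in MEFs to 17.7 and 18.7 CPM in CiSCs, and stood at 0.479 and 0.109 CPM in MSCs. Its rise in CiSCs against MSCs was 5.92 ± 0.459 (adjusted p = 0.000131). The oxidised lipoprotein receptor gene Olr1 was likewise higher in CiSCs than in MEFs (2.65 ± 0.168, adjusted p = 7.21e-05) and MSCs (2.95 ± 0.172, adjusted p = 4.39e-05). Scarb1, a lipoprotein receptor that also serves Sertoli cells in clearance, rose in MSCs against MEFs (1.49 ± 0.154, adjusted p = 0.000507), and in CiSCs against MEFs it gave -0.45 ± 0.153 (adjusted p = 0.0572). In MSCs against MEFs 2 of the 18 rose and 10 fell (11.1% and 55.6%), and in CiSCs against MSCs 5 rose and 9 fell (27.8% and 50%).

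Among 14 other bridging and opsonin genes 2 rose and 9 fell in CiSCs against MEFs (14.3% and 64.3%, median -1.75). In MSCs against MEFs 3 rose and 8 fell (21.4% and 57.1%), and in CiSCs against MSCs 2 rose and 9 fell (14.3% and 64.3%). The complement genes C1qa, C1qc and C3 were all below 3 CPM in CiSCs. C3 stood at 206 and 353 CPM in MEFs, 0.573 and 0.982 CPM in CiSCs, and 1973 and 1904 CPM in MSCs. C4b, whose reads a near-identical copy, C4a, could share, had 0 reads in both MEF libraries, 0.238 and 0.0468 CPM in CiSCs, and 382 and 412 CPM in MSCs. Edil3, a relative of Mfge8 that also joins phosphatidylserine to integrins, showed the reverse of the C3 order: 17.5 and 8.06 CPM in MEFs, 32.0 and 45.0 CPM in CiSCs, and 0.266 and 0.109 CPM in MSCs. It rose in CiSCs against MEFs (1.59 ± 0.381, adjusted p = 0.0169) and fell in MSCs against MEFs (-6.04 ± 0.621, adjusted p = 0.000496). Mfge8 and Edil3 thus both rose in CiSCs, and in MSCs they changed in opposite directions.

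Of 16 other genes of the engulfment machinery 3 rose, 5 fell and 8 did not pass the test in CiSCs against MEFs (18.8% higher and 31.2% lower, median -0.12). In MSCs against MEFs 4 rose and 5 fell (25% and 31.2%), and in CiSCs against MSCs 2 rose and 7 fell (12.5% and 43.8%). Dock2, the leukocyte relative of Dock1, fell from 107 and 152 CPM in MEFs to 0.143 and 0.515 CPM in CiSCs, and Vav1, a leukocyte exchange factor, from 80.2 and 134 CPM to 0.382 and 0.374 CPM. Gulp1, an adaptor of engulfment receptors, rose both in CiSCs (1.84 ± 0.282, adjusted p = 0.00292) and in MSCs (3.11 ± 0.292, adjusted p = 0.00034) against MEFs. Trio, an exchange factor upstream of RAC1, was higher in CiSCs than in MSCs (2.02 ± 0.304, adjusted p = 0.00228). It also rose in CiSCs against MEFs (1.25 ± 0.296, adjusted p = 0.0162), where the MEF libraries stood apart at 152 and 78.5 CPM.

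Of 21 genes of corpse digestion and lipid handling 1 rose, Pparg, a lipid-sensing nuclear receptor (2.45 ± 0.291, adjusted p = 0.000985), and 12 fell in CiSCs against MEFs (4.76% and 57.1%, median -0.66). The counts were 3 and 6 in MSCs against MEFs (14.3% and 28.6%) and 2 and 9 in CiSCs against MSCs (9.52% and 42.9%). Abca1, which exports cholesterol after engulfment, stood at 322 and 267 CPM in MEFs, 58.6 and 71.7 CPM in CiSCs, and 1240 and 1100 CPM in MSCs, the same order of groups as Cd36. Abcg1, its partner in export, was highest in MEFs (185 and 190 CPM) and lower in MSCs (25.5 and 25.7 CPM) and CiSCs (7.35 and 7.11 CPM). Among 13 genes of signals on and from dying cells, 1 rose and 6 fell in CiSCs against MEFs (7.69% and 46.2%). In MSCs against MEFs 4 rose and 3 fell (30.8% and 23.1%), and in CiSCs against MSCs 1 rose and 5 fell (7.69% and 38.5%). Cd24a, a signal against engulfment, rose in CiSCs against MEFs (2.77 ± 0.154, adjusted p = 4.34e-05), and Sirpa, the receptor of CD47 on phagocytes, fell (-4.57 ± 0.181, adjusted p = 1.71e-05). Sphk1, which makes the attractant sphingosine phosphate, rose in MSCs against MEFs (3.78 ± 0.148, adjusted p = 1.6e-05).

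Among 13 genes of TAM ligand carboxylation, receptor shedding and signalling, 3 rose and 3 fell in CiSCs against MEFs (23.1% each, median 0.19). In MSCs against MEFs 4 rose and 3 fell (30.8% and 23.1%), and in CiSCs against MSCs 2 rose and 2 fell (15.4% each). Ggcx, the carboxylase that GAS6 and protein S need to bind phosphatidylserine, was at 30.4 and 24.1 CPM in MEFs, 38.3 and 48.8 CPM in CiSCs, and 58.9 and 57.9 CPM in MSCs. It rose against MEFs in CiSCs (0.68 ± 0.181, adjusted p = 0.0257) and in MSCs (1.10 ± 0.182, adjusted p = 0.00379). Socs3, a suppressor of cytokine signalling that TAM receptors induce, rose in MSCs against MEFs by 1.46 ± 0.119 on the log2 scale (adjusted p = 0.000193) and fell in CiSCs against MEFs (-1.26 ± 0.120, adjusted p = 0.000375). Pik3r1, a subunit of the kinase that TAM receptors recruit, rose in CiSCs against MEFs (2.49 ± 0.185, adjusted p = 0.000136) and MSCs (2.47 ± 0.185, adjusted p = 0.000116).

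**Figure D5:**
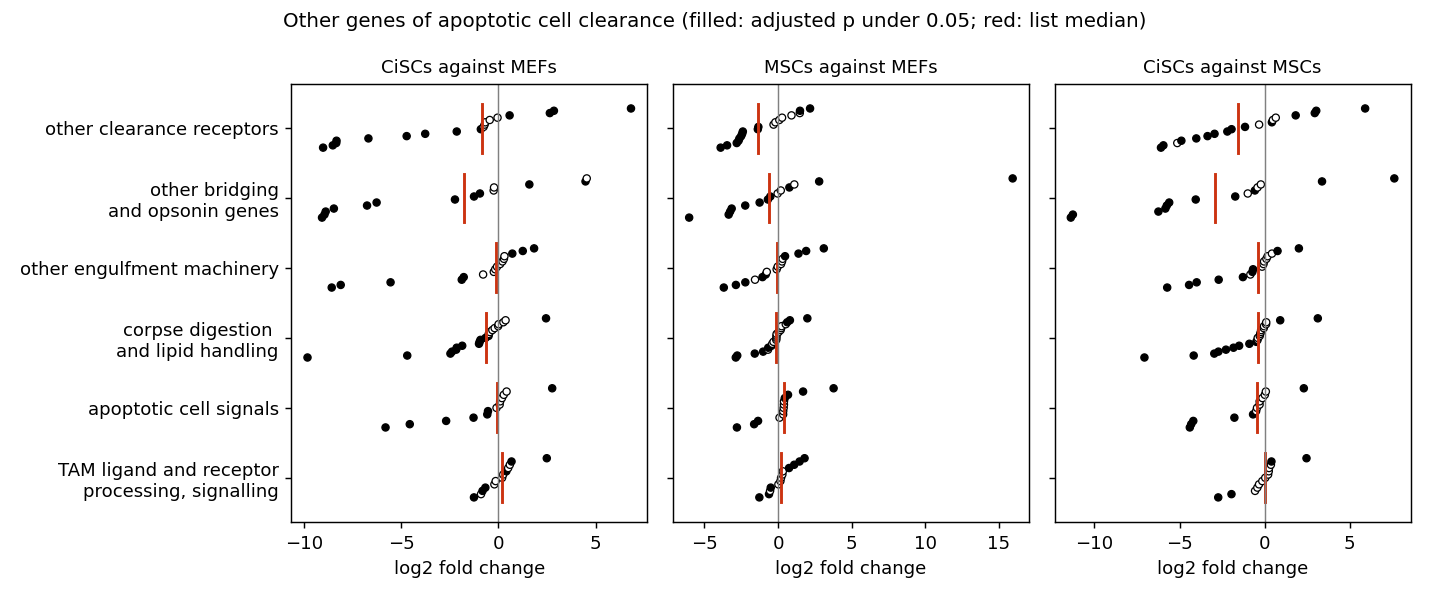
Log2 fold change of the 95 other tested genes of apoptotic cell clearance in 6 lists, with 1 point per gene, filled for an adjusted p under 0.05 (edgeR), and a red bar at each list's median. In CiSCs against MEFs the receptor and opsonin lists have medians of -0.84 and -1.75 and the list of TAM ligand and receptor processing 0.19. The point furthest right in MSCs against MEFs is C4b, whose fitted value depends on edgeR's default prior count because MEFs had 0 reads.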

How the data were processed

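RNA sequencing on the BGISEQ-500 platform measured 6 libraries of total RNA. The authors deposited 1 table per library with expected counts per Entrez Gene identifier, which are estimated read numbers (42.0% to 43.8% of the values were not whole, at a tolerance of 1e-09), and these checks cannot tell them from some normalised values. HISAT and the build mm9 are named, per the submitters' processing notes. The counting program, annotation and strand were not given in the sources used here, so reads of overlapping genes may be shared. A RefSeq table gave symbols for 18891 of 20007 identifiers.

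Expected counts were rounded and fitted in R 4.3.3 with edgeR 4.0.16 (filterByExpr, TMM scaling, 1 mean per group over all 6 libraries, 3 residual degrees of freedom, two-sided quasi-likelihood F tests, Benjamini-Hochberg adjustment over 15272 genes, threshold 0.05). The standard error is the log2 fold change over the root of its F value. Log2 CPM used a prior count of 2, and the fitted fold changes used edgeR's default prior count. Coding and transcript lengths came from GENCODE M21. The fit was also run on simulated counts with 200 changed genes, and the outcome is not reported here.

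The 9 genes, the lists and the tests were chosen with earlier results of these data known. Named were the 9 genes and, per list and comparison, up to 2 called genes in each direction with the smallest adjusted p, some of which are not reported here, and the 2 nearest profiles per gene. Alternatives were leaving out each library, the replicate block, only the 2 groups compared, median-ratio scaling, no filter, at least 5 CPM in 2 libraries, DESeq2 1.42.0, adjusted p under 0.01, a fold of 1.5 and unrounded counts. Replicates differed by far more than sampling noise (chi-square per degree of freedom 8.85 to 90.2), so no library was counted as a copy.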

Additional observations from a re-analysis of the deposited data

How the results depend on the processing

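Of 351 single-gene values under 13 alternatives, 318 kept their direction and side of the threshold. These 13 leave out the adjusted p under 0.01 and the fold of 1.5. The ranges of adjusted p given above for single genes cover the same 13. Calls among the 9 genes in CiSCs against MEFs (7) fell to 3 at an adjusted p under 0.01 and to 3 against a fold of 1.5, where calls over all tested genes fell from 40.9% to 24.7% and 24%, and ranged from 3 to 8 when each library was left out in turn. The ranges were 6 to 9 in MSCs against MEFs (8) and 6 to 7 in CiSCs against MSCs (6). For the other clearance genes they were 45 to 73 (58), 37 to 75 (55) and 43 to 72 (55). Over all tested genes the called share also rose or fell with the library left out, in each comparison. The replicate block gave 6, 7 and 6 calls among the 9 genes and 51, 50 and 53 other genes, beside 35.8%, 37.1% and 38.1% of all tested genes. With the block, Axl in CiSCs against MEFs (adjusted p = 0.0527) and Pros1 in MSCs against MEFs (0.0658) missed the threshold. Same-numbered libraries did not all deviate in the same direction (correlations -0.215, 0.138 and -0.129). These correlations cannot show if such libraries share a batch or culture. Leaving out a library reversed 3 values, none of them called: Dock1 in MSCs against MEFs (-0.347 without MEF replicate 2, range up to 0.826) and Mertk in CiSCs against MSCs (-0.0551 without CiSC replicate 1, -0.0146 without MSC replicate 1, range up to 0.113). The cause was not tested. Full transcript length, an alternative chosen after seeing the data, kept 9, 9 and 6 of the 9 ranks per kb in MEFs, CiSCs and MSCs. All values rest on 2 libraries per group, and that of Cd36 in CiSCs on 10 and 6 reads.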
